A study of Mus musculus with 16 samples.

Results

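The adipocyte genes followed here are 10 transcripts that mark fat cells, namely Adipoq, Plin1, Cidec, Pparg, Lep, Fabp4, Lpl, Cfd, Adig and Retn, and their members were chosen by gene symbol in the RNAseq values of mouse femoral cortical bone. Of these 10 genes, 9 have a row among the 36829 features listed for each mouse, and Lpl was not analysed here. A mean of at least 0.5 RPKM (reads divided by gene length and by library size) over the 16 mice was needed for the comparison across genes, and 8 of the 9 genes passed it, among 16973 features in all. Lep, with a mean of 0.321 RPKM, did not pass and is described from a fit without that filter. The mice were female C57Bl/6 animals of 11 weeks. The 8 HLU mice (hindlimb unloading, in which the hind limbs are lifted off the cage floor) had been unloaded for 7 days, and the 8 control mice bore weight normally. Each mouse gave 1 library from a femur whose ends had been cut off and whose marrow had been flushed out, so the RNA is that of bone tissue with whatever lining, vessel, marrow and adherent cells remained. A single strain, sex, age and time point were studied.

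Adipocytes store triglyceride in lipid droplets and release it as fatty acids on demand. Pparg and the C/EBP factors switch on the fat cell programme, which includes droplet coat proteins, fatty acid carriers and secreted adipokines. In bone, fat cells lie in the marrow, and marrow stromal cells of the adipocyte lineage, which hold no large droplet, make adiponectin too. Fabp4 is also made by capillary endothelium and by macrophages, and Pparg by macrophages and osteoclasts, so these transcripts are not private to fat cells.

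The reads behind a library ranged from 7067512 to 19708590 in the control mice and from 7838277 to 21363584 in the HLU mice, as recovered from the steps of the RPKM values. Control 2 and HLU 5 were the smallest libraries. In these units 3 reads on a gene of 1 kilobase were worth 0.140 to 0.424 RPKM, and such limits cover counting error only. The share of a library's reads that fell on listed features was 81.4% to 93.2% in the control mice and 76.3% to 92.1% in the HLU mice. This share moved with several adipocyte genes and is given beside them. All 12 osteocyte and osteoblast markers were measured, with sums of 991 to 2431 RPKM in control mice and 1298 to 3002 RPKM in HLU mice. Marrow cells had also left RNA. The 9 neutrophil markers measured summed to 18123 to 38668 RPKM in control mice and 12930 to 45655 RPKM in HLU mice. Of 16 skeletal muscle markers 1 was listed, Myh7, at 0.148 to 56.7 RPKM over the 16 mice. In bulk RNA of this kind, fewer cells of a type and less RNA per cell cannot be told apart.

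Sequences upstream of 3 genes are shown as a description. Any relation of their letters to the covariation described further on was not tested. They come from RefSeq on GRCm38.p6, in which 8 of the 9 genes matched a promoter entry, and each is given 5′ to 3′ on the strand of the gene, upstream of its start. Fabp4 had no entry in the table. Capitals mark the letters CCAAT on either strand in Adipoq (chr16:23146286-23146535, plus strand) and the C/EBP letters TTGCNNAA on either strand in Plin1 (chr7:79732904-79733026, minus strand) and Lep (chr6:29059971-29060219, plus strand).
Adipoq: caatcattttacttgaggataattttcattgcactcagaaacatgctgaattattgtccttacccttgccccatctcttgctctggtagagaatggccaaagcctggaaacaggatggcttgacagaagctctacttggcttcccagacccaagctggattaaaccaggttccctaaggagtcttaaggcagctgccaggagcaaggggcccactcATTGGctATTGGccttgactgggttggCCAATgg
Plin1: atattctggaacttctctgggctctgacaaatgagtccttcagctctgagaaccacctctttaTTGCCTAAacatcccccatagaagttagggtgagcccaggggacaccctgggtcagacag
Lep: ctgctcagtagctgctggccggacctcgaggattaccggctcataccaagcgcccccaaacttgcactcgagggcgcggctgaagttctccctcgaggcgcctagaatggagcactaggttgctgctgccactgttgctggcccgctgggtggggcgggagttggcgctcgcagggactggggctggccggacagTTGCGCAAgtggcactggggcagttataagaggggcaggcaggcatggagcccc
The Adipoq window held 3 CCAAT sites and no C/EBP match. The Plin1 stretch and the Lep window held 1 C/EBP match each, and the 250 bases before the RefSeq start of Plin1 held 2. Over 32851 promoter windows of 250 bases, 9.56% held the C/EBP letters and 33.8% held CCAAT. Of the 11 windows of the adipocyte genes, 4 held the C/EBP letters (Cidec, Lep, Plin1 and Pparg) and 3 held CCAAT (Adipoq and Pparg). The nuclear receptor core site AGGTCA stood in 3 of the 11 (Adig and Pparg) and in 14.0% of all windows. A match describes letters in a window, and no binding was measured.

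Transcript abundance spanned a wide range among the 9 genes. Fabp4, a carrier of fatty acids in the cytoplasm, had the highest RPKM in all 16 mice. Adipoq, which encodes the hormone adiponectin, came next and was above Cfd in 13 of 16 mice. Then followed Cfd (adipsin, a protease of the alternative complement pathway), Pparg (the nuclear receptor of fat cell differentiation), Retn (resistin), Cidec (a protein of lipid droplet fusion), Adig (adipogenin, a small protein of the lipid droplet), Plin1 (perilipin 1, the coat of the fat cell's droplet) and Lep (leptin, the satiety hormone). Each gene in this order exceeded the next in at least 12 of 16 mice. In exact sign-flip tests over the mice, two-sided and adjusted over the 8 neighbouring pairs, the highest p was 0.0182, for Cidec against Adig. The order was set from the means of the same 16 mice, so these p-values do not test an order chosen beforehand. The order is per length as the files imply it. For Fabp4 that length is 637 bases, against 4489 bases of exons in GENCODE M21, and for Cidec it is 3266 against 1856 bases, so another annotation would move these levels.

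The reads behind the values differed as widely. Adipoq rested on 663 to 1916 reads a mouse and Fabp4 on 2288 to 9297. Plin1 rested on 9 to 94 reads, Adig on 4 to 118 and Lep on 2 to 24, so their values in single mice carry a large counting error. Cidec had 14 to 277 reads, Retn 24 to 411, Cfd 86 to 1700 and Pparg 178 to 457. Pparg overlaps the antisense gene Gm44079 in GENCODE M21, and reads of the pair cannot be told apart without strand.

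**Figure D1:**
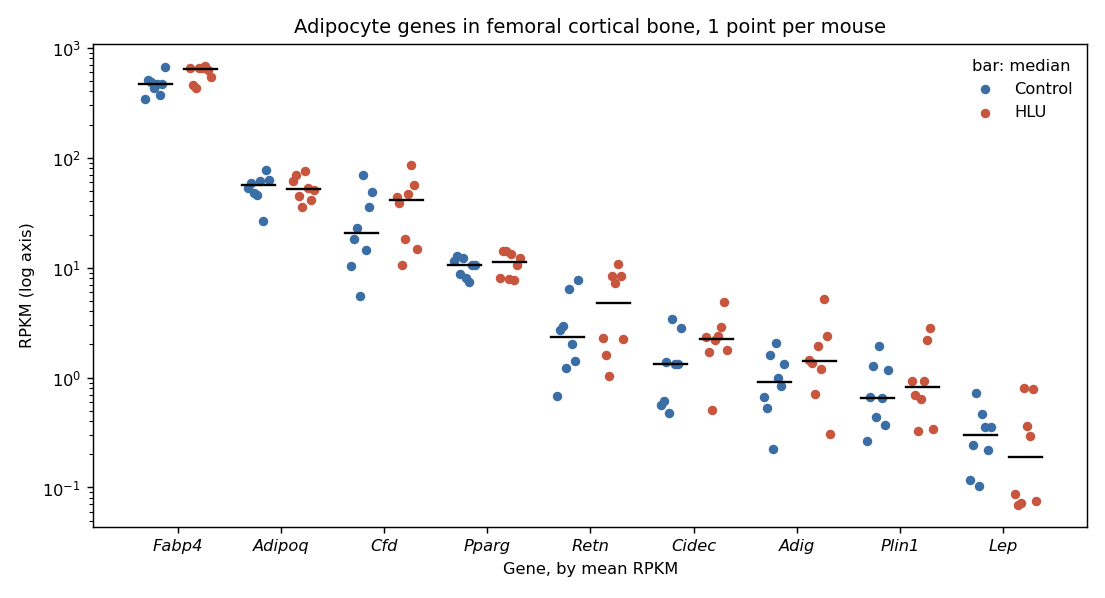
RPKM on a log axis for the 9 genes, ordered by mean, with 1 point per mouse (8 control, 8 HLU) and a bar at the median of each group. The groups overlap for every gene, and the mice of a group lie far apart for Cfd, Retn, Cidec, Adig, Plin1 and Lep and close together for Fabp4, Adipoq and Pparg.

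Whether unloading changed these transcripts was asked by comparing the 8 HLU mice with the 8 control mice. Fabp4 rose 1.26-fold at an unadjusted p under 0.05, and none of the other genes passed that threshold. Cidec, Retn and Adig were 1.53-fold to 1.63-fold higher in HLU mice on the log scale, with log2 fold changes of 0.70, 0.68 and 0.62, within a spread between mice that was as large. Leaving out 1 mouse moved these log2 fold changes to 0.53 (without HLU 7) and 0.96 (without HLU 3) for Cidec, 0.45 (without Control 1) and 0.94 (without HLU 3) for Retn, and 0.36 (without HLU 6) and 0.89 (without HLU 8) for Adig. Adipoq was at nearly the same level in both groups, and the groups overlapped for all 9 genes. Over all 16973 features, 1.11% were called higher and 4.76% lower at an unadjusted p under 0.05 with a change of at least 1.2-fold, and 5.87% in either direction. By limma with Benjamini-Hochberg adjustment, 0 of 16973 features passed an adjusted p of 0.1, while 1049 (6.18%) had an unadjusted p under 0.05 at any fold. Groups of 8 mice that did not overlap at all were seen for 5 features (0.0295%). Without the filter, 4.86% of 29628 features were called in either direction.

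Among the secreted proteins, Adipoq had a lowest value of 26.7, a median of 55.9 and a highest of 76.6 RPKM among the controls, and 35.7, 52.4 and 75.7 RPKM after HLU. The ranges of the groups overlapped almost wholly, with Control 6 the lowest and Control 7 the highest mouse. The control mean was 54.0 ± 14.6 RPKM (SD, n = 8) and the HLU mean 54.1 ± 13.9 RPKM (SD, n = 8). On log2(RPKM + 0.1) the fold change was 0.015 (standard error 0.20, 95% interval -0.37 to 0.40), with an exact permutation p of 0.948. The direction of so small a difference was not fixed, and it was -0.0020 with Myh7 as a covariate.

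Cfd ran from 5.57 through a median of 20.7 to 69.0 RPKM among the controls and from 10.6 through 41.0 to 86.2 RPKM after HLU. Control 5 and Control 8 were as high as the upper HLU mice, and HLU 3 was as low as Control 1. The log2 fold change of Cfd was 0.58 ± 0.51 (standard error), with an exact permutation p of 0.313. Retn ran from 0.686 through a median of 2.36 to 7.68 RPKM among the controls and from 1.03 through 4.75 to 10.8 RPKM after HLU. Of the HLU mice, 4 had 7.18 RPKM or more (HLU 4, 5, 6 and 7) and the other 4 had 2.31 RPKM or less. Retn differed by 0.68 ± 0.55 on the log2 scale, with an exact permutation p of 0.268.

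Lep, on 2 to 24 reads, had values of 0.102, 0.299 and 0.730 RPKM (lowest, median and highest) among the controls and 0.0695, 0.191 and 0.803 RPKM after HLU. HLU 4 and HLU 7 were above every control mouse, and HLU 1, 2, 3 and 8 were below every control mouse on 2 or 3 reads each. In the fit without the filter Lep differed by -0.22 ± 0.43 on the log2 scale (exact permutation p = 0.619). No difference in Lep was detectable at this depth.

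Of the lipid droplet proteins, Plin1 had 0.265, 0.658 and 1.95 RPKM (lowest, median and highest) among the controls and 0.329, 0.815 and 2.81 RPKM after HLU. HLU 6 and HLU 7 were above every control mouse, and HLU 3 and HLU 8 were among the lowest. Plin1 differed by 0.26 ± 0.44 on the log2 scale (exact permutation p = 0.571), and by -0.36 with the share of reads on listed features as a covariate. Cidec had 0.476, 1.33 and 3.44 RPKM among the controls and 0.502, 2.26 and 4.85 RPKM after HLU. Of the 8 HLU mice 7 were above the control median, and HLU 3 was far below the rest. The log2 fold change of Cidec was 0.70 ± 0.43 (95% interval -0.14 to 1.54), with an exact permutation p of 0.150. It passed the unadjusted threshold without HLU 3 (0.96, limma adjusted p = 0.542) and without Control 5 (0.91, limma adjusted p = 0.570). Adig had 0.224, 0.916 and 2.07 RPKM among the controls and 0.307, 1.40 and 5.17 RPKM after HLU. HLU 6 stood alone at the top, and HLU 8 was below all control mice but Control 4. Adig differed by 0.62 ± 0.46 (exact permutation p = 0.234).

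Fabp4 had 344, 466 and 665 RPKM (lowest, median and highest) among the controls and 430, 640 and 683 RPKM after HLU. Of the 8 HLU mice 6 were above the control median, but Control 8 was above 7 of them, so the groups overlapped. The control mean was 467 ± 98.0 RPKM (SD, n = 8) and the HLU mean 587 ± 98.1 RPKM (SD, n = 8). The log2 fold change of Fabp4 was 0.34 ± 0.15 (95% interval 0.044 to 0.63), with a limma adjusted p of 0.744 and an exact permutation p of 0.0329 over 12870 splits. The unadjusted call was lost when Control 1, Control 4, Control 6 or any 1 of HLU 1, 4, 5, 6 and 7 was left out, where the log2 fold change was 0.28 to 0.32.

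Pparg had 7.45, 10.6 and 12.7 RPKM (lowest, median and highest) among the controls and 7.69, 11.4 and 14.3 RPKM after HLU. HLU 1, 4 and 6 lay at 7.69 to 8.07 RPKM and the other HLU mice at 10.5 to 14.3 RPKM, on both sides of the control median. Pparg differed by 0.081 ± 0.17 (exact permutation p = 0.627).

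**Figure D2:**
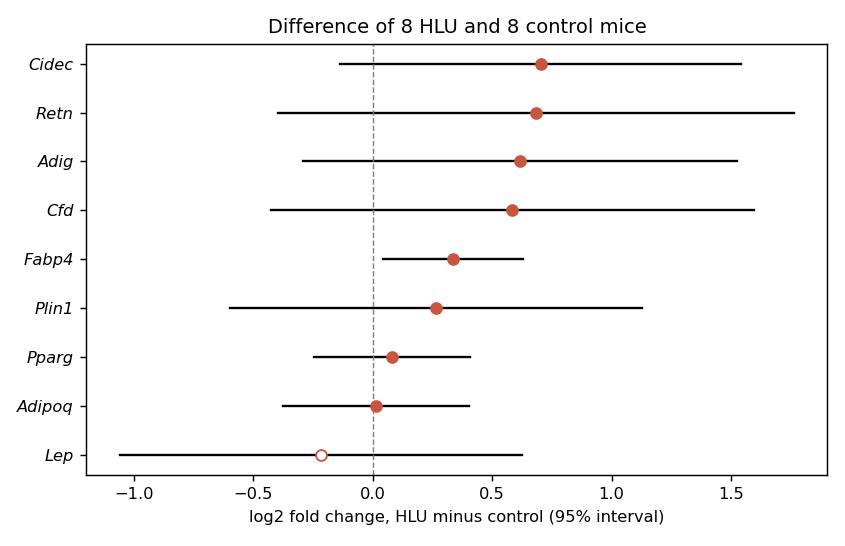
Log2 fold change of HLU against control for the 9 genes, with the 95% interval of each and a dashed line at 0. Lep, drawn as an open point, comes from the fit without the filter, and Fabp4 is the gene whose interval, 0.044 to 0.63, lies above 0.

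Of the 8 tested genes, 1 was called higher, 0 were called lower and 8 had a log2 fold change above 0, with a median of 0.46. Over all features 32.1% had a log2 fold change above 0, and the median was -0.10. That median moved to 0.0011 under quantile normalization and to -0.018 under median-of-ratios rescaling, where the 8 genes had medians of 0.57 and 0.55. Mitochondrial genes held 6.08% to 13.9% of the reads on listed features in the control mice and 7.88% to 19.1% in the HLU mice. Scaling to listed reads outside mitochondrial genes moved the median of all features to 0.0097 and that of the 8 genes to 0.58. The share of calls over all features that were higher was 18.9% with RPKM as deposited, 48.4% after median-of-ratios rescaling, 57.0% after quantile normalization and 50.8% when scaled to listed reads outside mitochondrial genes. With the share of reads on listed features as a covariate the median of the 8 genes was 0.071 and 7 of them were above 0. Under that covariate Cidec had a log2 fold change of 0.20, Fabp4 0.23, Retn 0.071, Adig 0.065 and Cfd 0.048. The part of that share in these differences was not tested.

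Some markers of other cells are given beside these differences. Of 11 erythroid markers tested 3 were called lower in HLU mice (Hbb-b1, Hbb-b2 and Klf1), with a median log2 fold change of -0.57 over the list and a lowest limma adjusted p of 0.744. The calls of Hbb-b2 and Klf1 were each lost in 8 of the 16 fits that left out 1 mouse, without the 2 smallest libraries and with the share of reads on listed features as a covariate. The list summed to 3104 to 8724 RPKM in control mice and 1694 to 4522 RPKM in HLU mice. With erythroid and neutrophil scores as covariates, 3 of the 8 adipocyte genes were called higher, among them Cidec at a log2 fold change of 1.07 (limma adjusted p = 0.176) and Cfd at 1.17 (limma adjusted p = 0.240). In that fit 7.45% of all 16973 features were called higher, 10.6% lower and 18% in either direction. The part of these cells in the differences was not tested. Of 11 fibroblast and periosteum markers 0 were called by limma, and their median was 0.28. Of 12 endothelial markers 9 had a log2 fold change above 0 (median 0.066), and of 8 smooth muscle and pericyte markers 7 did (median 0.23), with no call in either list. Macrophages make both Fabp4 and Pparg. Of 12 macrophage markers 0 were called and 0 had a log2 fold change above 0, with a median of -0.18. They summed to 169 to 351 RPKM in control mice and 126 to 364 RPKM in HLU mice. Above 0 were also 0 of 11 erythroid, 0 of 10 B lymphocyte, 1 of 9 neutrophil and 5 of 10 adipo-lineage marrow stroma markers. Over all features the share above 0 was 32.1%. In addition, 1 osteocyte marker (Mepe) was called higher and 1 B lymphocyte marker (Vpreb3) lower.

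The genes around the 9 were described from 12 pathway lists of 156 gene entries, of which 136 were listed and 112 were tested. Of the 112, 3 were called higher (2.68%) and 0 lower. Over all features 1.11% were called higher and 4.76% lower, or 5.87% in either direction. The median log2 fold change over the 112 was 0.0077. Scd1, the desaturase that makes oleate and palmitoleate for triglyceride, had 67.3 ± 33.4 RPKM (SD, n = 8) among the controls and 137 ± 74.1 RPKM (SD, n = 8) after HLU. It rose by 0.92 ± 0.37 on the log2 scale, with 7 of 8 HLU mice above the control median, at an exact permutation p of 0.0426 and a limma adjusted p of 0.744. Aqp7, the channel through which glycerol leaves the fat cell, had 1.93 ± 0.769 RPKM among the controls and 2.88 ± 1.19 RPKM after HLU. It was called higher by limma, at 0.53 ± 0.25 (exact permutation p = 0.0559), with 8 of 8 HLU mice above the control median. Aplnr, the receptor of the adipokine apelin, had a mean of 6.10 RPKM among the controls and 7.79 RPKM after HLU, and rose by 0.34 ± 0.15 (exact permutation p = 0.0333). Each call was lost on leaving out some single mice, in 4 (Scd1), 9 (Aqp7) and 7 (Aplnr) of 16 such fits, and all 3 without the 2 smallest libraries. Erythroid and neutrophil scores as covariates ended the calls of Scd1 (0.67) and Aplnr (0.20), and the share of reads on listed features those of Scd1 (0.56) and Aqp7 (0.20). Plin2, the droplet coat protein of many cell types, stayed just under 1.2-fold, at -0.26 ± 0.12 (exact permutation p = 0.0270). Sdpr, a caveolar protein, was likewise just under it, at -0.25 ± 0.11 (exact permutation p = 0.0258).

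No other gene of the 12 lists was called. Of the adiponectin receptors, Adipor1 differed by 0.0039 on the log2 scale and Adipor2 by 0.12 (exact permutation p = 0.0395). Lepr, the leptin receptor, had -0.054 (exact permutation p = 0.764). Lipe, the hormone-sensitive lipase, had 1.51 ± 0.747 RPKM among the controls and 1.92 ± 0.891 RPKM after HLU. Of the 14 adipogenic transcription factors tested 6 had a log2 fold change above 0, and Cebpa, a partner of Pparg, had -0.13 (exact permutation p = 0.352). Gpihbp1, the endothelial anchor of lipoprotein lipase, had 0.33 (exact permutation p = 0.385). Of 8 genes of the alternative complement pathway, in which the Cfd product acts, 1 had a log2 fold change above 0, and C3 had -0.21 (exact permutation p = 0.376). Cidea, a brown fat relative of Cidec, was low, with 0.441 ± 0.383 RPKM among the controls and 0.664 ± 0.601 RPKM after HLU.

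How the genes rose and fell together between mice of the same treatment was asked next, on log2(RPKM + 0.1) centred within each group. The mice differed little in some genes and much in others. The highest control mouse exceeded the lowest 2.87-fold in Adipoq, 1.93-fold in Fabp4 and 1.70-fold in Pparg. For Plin1 this range was 7.35-fold, for Cidec 7.24-fold, for Lep 7.14-fold, for Adig 9.27-fold, for Retn 11.2-fold and for Cfd 12.4-fold. Control 5 and Control 8 were among the highest control mice in Plin1, Cidec, Cfd, Adig and Retn, and Control 1 and Control 4 among the lowest. HLU 6 and HLU 7 were the highest HLU mice, or next to the highest, and HLU 3 and HLU 8 were among the 3 lowest in Plin1, Cidec, Cfd and Adig.

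Adipoq showed no detectable correlation with the droplet genes. Its Pearson correlations with the other 8 genes ran from -0.31 (Lep) to 0.46 (Cfd). In permutation tests over the 16 mice 0 of 8 passed an adjusted p of 0.05, nor an unadjusted one, the lowest unadjusted p being 0.0912 for Cfd (rho = 0.49, permutation p = 0.0631). With Plin1 the correlation was 0.011 (Spearman's rho = 0.074, permutation p = 0.970 and 0.795), with Cidec 0.11, with Adig -0.0054 and with Retn -0.0064. Leaving out the 2 mice farthest from the Adipoq median left 0.45 with Cfd and 0.059 in place of 0.42 with Pparg. With the share of reads on listed features as a covariate the correlation of Adipoq with Cfd was 0.71 (adjusted permutation p = 0.0252), and the other 7 did not pass.

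The pairs without Adipoq were examined after the values had been seen. The 15 pairs among Plin1, Cidec, Cfd, Adig, Retn and Lep had correlations of 0.45 to 0.84 with a median of 0.79. Of these 15 pairs 14 had an adjusted p under 0.05 over all 36 pairs of the 9 genes, in permutation tests. Cidec and Cfd had the highest correlation, 0.84 (rho = 0.89), with 0.91 in the control mice alone and 0.77 in the HLU mice alone. Plin1 and Cidec had 0.80 (rho = 0.87, permutation p = 0.000190 and 1.00e-04), and 0.69 without the 2 mice farthest from the Plin1 median. Fabp4 correlated with Retn at 0.81 (rho = 0.83, adjusted permutation p = 0.00171), and its correlations with the 6 genes ran from 0.44 to 0.81. Pparg went the other way. Its correlations with the same 6 genes were all below 0, from -0.67 (Adig) to -0.39 (Cfd), and 2 of 6 passed the adjusted p.

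**Figure D3:**
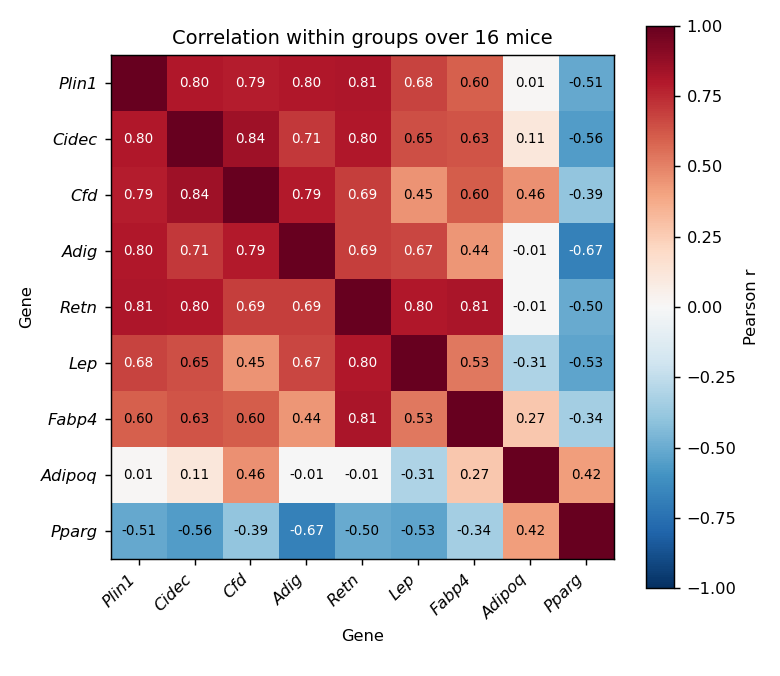
Pearson correlation of each pair of the 9 genes over 16 mice, on log2(RPKM + 0.1) centred within groups, with the value printed in each cell and the colour running from -1 to 1. Plin1, Cidec, Cfd, Adig, Retn and Lep correlate at 0.45 to 0.84 with each other, Adipoq lies near 0 with most of them, and Pparg lies below 0.

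These correlations stand on a wide background. Of 15744 features with a unique symbol, 18.5% had a correlation of at least 0.7 with Plin1 in size, in either direction, against 0.642% with Adipoq. Among the 15743 others, ordered by their correlation with Plin1, Retn was at place 201, Adig at 236, Cidec at 266, Cfd at 324 and Fabp4 at 1869. Adipoq was at place 7573 and Pparg at 11858. Ordered by their correlation with Adipoq, Cfd was at place 1782, Pparg at 2444, Plin1 at 9683 and Retn at 10019. With Fabp4 as the reference, Retn was at place 12.

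The share of reads that fell on listed features moved with the same genes. Plin1 correlated with it at -0.85 (rho = -0.83, adjusted p = 0.0027 over 27 relations in permutation tests), Adig at -0.70 and Cidec at -0.69 (adjusted p = 0.0389 each). Lep, Retn and Cfd had -0.67, -0.65 and -0.60, Pparg had 0.66, and Adipoq had 0.17. Control 5, HLU 6 and HLU 7, high in Plin1, had shares of 81.4%, 79.1% and 76.3%, and Control 1 and Control 4, low in Plin1, had 93.2% and 92.3%. After that share was taken out of both genes, the 15 pairs among Plin1, Cidec, Cfd, Adig, Retn and Lep had a median correlation of 0.55 (range 0.071 to 0.74), and 6 of 15 passed the adjusted p. Cidec and Cfd then had 0.74, Plin1 and Cidec 0.56, Fabp4 and Retn 0.76, and the 6 pairs of Pparg had -0.39 to 0.15. Library size had a correlation of 0.048 with Plin1. What the share reflects was not tested.

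**Figure D4:**
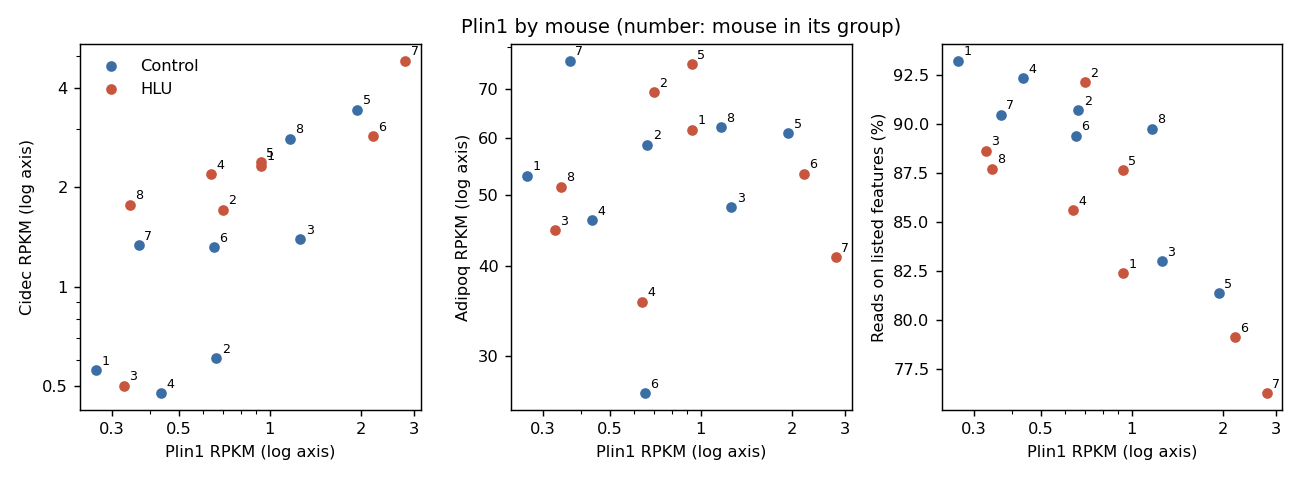
Plin1 RPKM of each mouse (log axis) against Cidec RPKM (log axis), Adipoq RPKM (log axis) and the percent of reads on listed features, with control and HLU mice in 2 colours and the number of the mouse beside its point. Cidec rises with Plin1, Adipoq shows no slope, and the share of reads on listed features falls from 93.2% in Control 1 to 76.3% in HLU 7.

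Other cell types of the bone were set beside Adipoq by scores, each the mean over a marker list of centred log2 values. Adipoq correlated at 0.60 with the score of adipo-lineage marrow stroma (rho = 0.54, permutation p = 0.0180 and 0.0387) and at 0.59 with that of macrophages (rho = 0.53, permutation p = 0.0176 and 0.0460). Over the 10 scores 0 passed an adjusted p of 0.05, the lowest being 0.0900 in permutation tests, and without the 2 mice farthest from the Adipoq median the values were 0.42 and 0.24. With the share of reads on listed features as a covariate they were 0.77 and 0.63, and 4 of 10 scores passed. The other scores that passed were endothelial (0.73) and smooth muscle and pericyte (0.62). Without that covariate, leaving out 1 mouse gave 0.42 to 0.68 for the stroma score and 0.43 to 0.80 for the macrophage score. Myh7, the slow muscle myosin, had -0.35 with Adipoq, and the fibroblast and periosteum score -0.19.

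Plin1, taken as the reference after these values had been seen, had another order. It correlated at 0.83 with the smooth muscle and pericyte score (rho = 0.82), at 0.77 with fibroblast and periosteum (rho = 0.82), at 0.71 with endothelial markers and at 0.67 with Myh7. It correlated at -0.66 with the neutrophil score, at -0.65 with the adipo-lineage stroma score and at -0.64 with B lymphocyte markers. Of the 10 scores 7 passed the adjusted p in permutation tests. After the share of reads on listed features was taken out, 0 of 10 passed for Plin1. Its correlation was then 0.46 with the smooth muscle and pericyte score and 0.059 with the stroma score. For Adipoq the same correlations, with the share taken out, were 0.62 and 0.77, so the contrast between the 2 genes depended on that share. The difference between Adipoq and Plin1 in these correlations was not tested, and the part of the other cells in the Plin1 level was not tested.

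**Figure D5:**
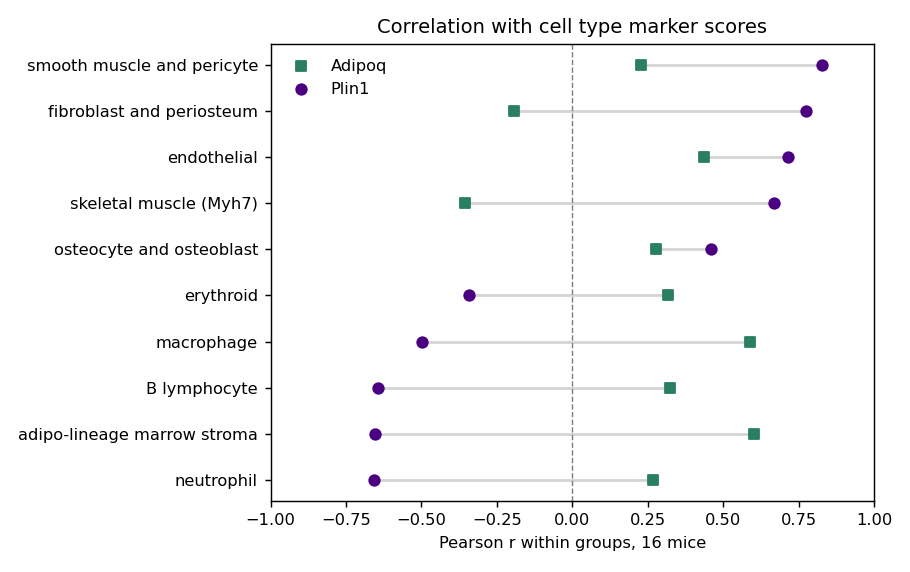
Pearson correlation within groups over 16 mice of Adipoq (squares) and Plin1 (circles) with the scores of 10 marker lists, of which skeletal muscle is Myh7 alone. The stroma score lies at 0.60 for Adipoq and at -0.65 for Plin1, and the smooth muscle and pericyte score at 0.23 and 0.83. The share of reads on listed features is not taken out here.

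Of the 12 genes of fatty acid and triglyceride synthesis measured, 8 had a higher correlation with Plin1 than with Adipoq over the 16 mice. This is a description with no test of the difference, and each library's depth and share of listed reads enter both correlations. The same was seen in 11 of 11 fibroblast and periosteum, 8 of 8 smooth muscle and pericyte and 10 of 12 endothelial markers. It was seen in 0 of 10 stroma, 0 of 12 macrophage and 0 of 9 neutrophil markers. The share over all features was not computed. Fasn (fatty acid synthase) had a correlation of 0.86 with Plin1 and 0.016 with Adipoq, Thrsp 0.85 and 0.041, Acaca (acetyl-CoA carboxylase) 0.80 and 0.11, and Scd1 0.75 and -0.0079. Dgat1, which makes triglyceride, had -0.29 with Plin1 and 0.50 with Adipoq, and Acly, Scd2 and Mogat2 were also higher with Adipoq. Lipe had 0.69 and 0.34, and Aqp7 0.69 and -0.30. Resistin relatives went both ways, with Retnla at 0.69 and Retnlg, a neutrophil gene, at -0.77 with Plin1. Cxcl12 and Vcam1, of the stroma list, had 0.82 and 0.39 with Adipoq and -0.45 and -0.80 with Plin1. Over the 10 markers of that list the median was 0.44 with Adipoq (range -0.12 to 0.82). With Plin1 it was -0.49 (range -0.80 to 0.11).

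The features most like Adipoq over the 16 mice, by Pearson correlation after centring, were Bmp6 (0.89), Igfbp4 (0.85), Abhd12, Oit3, Cxcl12, n-R5s41, P2rx2, Lhfpl2, Susd2 and Cxcl14 (0.80). Bmp6 encodes a bone morphogenetic protein and was at 3.75 ± 0.730 RPKM (SD, n = 8) among the controls and at 4.33 ± 0.640 RPKM (SD, n = 8) after HLU. Igfbp4, a binding protein of insulin-like growth factors, had means of 73.8 and 75.1 RPKM. Cxcl12, the chemokine of marrow stroma, was at 127 ± 29.5 and 129 ± 38.3 RPKM. These correlations were 0.94, 0.93 and 0.85 in control mice alone and 0.83, 0.79 and 0.81 in HLU mice alone. The features were picked as the highest over these same mice, so the values within each group follow from that choice and are no separate test. The features most like Plin1, by the same measure and chosen after the values were seen, were led by Ahnak2 (0.96), Kif13a (0.91), Tshz2 (0.90) and Bhlhe40 (0.90).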

How the data were processed

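The authors aligned the reads (TopHat2 and the build mm9 are named in the submitters' processing notes, with DESeq2 and no versions) and deposited RPKM values per mouse. RPKM divides reads by gene length and by library size, and no scaling between libraries is stated in the sources used here. HLU and control mice, grouped by the sample titles, were compared by limma 3.58.1 (R 4.3.3) on log2 values after adding 0.1, over the 16973 features whose mean reached 0.5 RPKM, with a variance trend, Benjamini-Hochberg adjustment and equal weights. The 95% intervals were taken from the limma standard errors with a normal quantile, so they are somewhat narrower than limma's own t test would give. DESeq2 was not run, since RPKM are not counts. Whole reads were recovered from the RPKM steps for 99.9% of these features (tolerance 0.02 reads), and voom on them was an alternative. Single genes were also compared by two-sided exact permutation of mice. Correlations used Python 3.11.15 with numpy 2.4.6, pandas 2.3.3 and scipy 1.17.1, with 100000 permutations within groups. Replicate numbers did not pair the mice.

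Named genes were the 10 adipocyte genes, list genes called or else abundant in their list, and the 10 features most like Adipoq, and genes named beyond these (among them Adipor2, Lepr, Lipe, Gpihbp1, Fasn, Thrsp, Acaca, Retnla and those most like Plin1) were chosen after their values were seen. The members and lists were chosen with earlier results of these data known. A shared symbol, Rnf135, is carried by 3887 features, which were tested but are not named. GENCODE M21 gave overlaps on GRCm38. The labels do not say whether mice shared a litter or cage. The p-values measure the spread between these animals and treat each as independent, which could not be checked here.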

Additional observations from a re-analysis of the deposited data

Results flagged for a closer look

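Dixon's test was made on 22 groups of 8 values (the 9 adipocyte genes and library measures in each treatment). In 2 groups a mouse stood apart from the other 7 by more than the 95% limit. Chance flags about 1 in 20 groups of normally distributed values. The genes were tested on RPKM and not on log2 values, so that rate may not hold for them. Adig in HLU 6 was at 5.17 RPKM, with a gap to the next mouse of 0.568 of the group's range. HLU 6 was also the highest HLU mouse in Cfd, Retn and Fabp4. The library of HLU 5 was small, with a divisor of 7838277 reads and a gap of 0.545 of the range, and without it and Control 2 the log2 fold change of Fabp4 was 0.33 (limma adjusted p = 0.765).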

How the results depend on the processing

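Adipoq and Plin1 changed sign. Adipoq had a log2 fold change of -0.0020 with Myh7, -0.014 with the osteocyte score and -0.0357 without the 2 smallest libraries, and Plin1 had -0.36 with the share of reads on listed features as a covariate. Leaving out 1 mouse gave Adipoq -0.12 to 0.094, Plin1 0.039 to 0.46, Cidec 0.53 to 0.96, Pparg 0.020 to 0.15, Fabp4 0.28 to 0.41, Cfd 0.31 to 0.83, Adig 0.36 to 0.89, Retn 0.45 to 0.94 and Lep -0.42 to -0.057. Fabp4 lost its call with no filter (0.34), sample quality weights (0.29), without the 2 smallest libraries (0.33) and with the listed share (0.23), so that 0 of 8 genes were then called. Erythroid and neutrophil scores as covariates gave Cidec 1.07, Cfd 1.17, 3 called genes and 18 of 112 list genes, where 18% of all features were called. Same-numbered mice correlated at -0.166 to 0.510 in their deviations and 1 of 8 control mice correlated best with its own number, so the numbers were not taken as pairs, and the replicate block gave Fabp4 0.34, 0 called genes and 1 list gene. Over all 16973 features the replicate block called 199 higher and 840 lower. List calls were 5 by quantile normalization (all features 473 higher, 357 lower) and 5 with Myh7 (316 and 1167). Leaving out 1 mouse gave 0 (without Control 7, 147 and 512) to 6 list calls (without HLU 2, 363 and 1385, or HLU 8, 212 and 1156). Called adipocyte genes were then 0 to 2, with 2 without Control 5 (255 and 1121) or HLU 3 (310 and 1170). With the listed share as a covariate, 1 of 8 correlations with Adipoq passed, 4 of 10 marker scores with Adipoq, 0 of 10 with Plin1 and 8 of 36 pairs, and leaving out 1 mouse gave 0 to 1 for the scores with Adipoq, 3 to 8 for those with Plin1 (2 without the 2 farthest mice) and 16 to 23 pairs.

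Correlations with Adipoq near 0 changed sign. For Plin1 they were -0.0054 at pseudocount 1, -0.092 without the 2 farthest mice and -0.060 to 0.15 leaving out 1 mouse. For Adig they were 0.0014 at pseudocount 0.01, 0.021 by median-of-ratios, 0.087 by quantile normalization, 0.000825 without centring, 0.043 without the 2 smallest libraries, 0.16 with the listed share, 0.12 without the 2 farthest mice and -0.068 to 0.049 leaving out 1 mouse. For Retn they were 0.10 by quantile normalization, 0.14 with the listed share, 0.094 without the 2 farthest mice and -0.090 to 0.11 leaving out 1 mouse. The smooth muscle score had -0.012 without the 2 farthest mice. The cause was not tested for any of these. Hbb-b2 had 0.053 with erythroid scores as covariates, which hold Hbb-b2 itself, so that the loss of its difference follows from the fit. Depth limits Lep, Adig and Plin1 most. The alternatives with the listed share, the 2 smallest libraries, the osteocyte score and Plin1 as reference were chosen after seeing the data.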
